A study of Sorghum bicolor with 9 samples.

Results

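Leaf transcripts of sorghum (Sorghum bicolor) grown in moderately saline-alkali soil were set against those of control plants, gene by gene. All 35281 genes of the deposited count table are covered, and 21109 of them had enough reads in the 6 libraries used to be tested. The plants of both groups were wild-type BTx623, the inbred whose sequence serves as the sorghum reference, and their leaves were taken when 4 leaves were out. The control group was kept under normal conditions, for which no salt content or pH is given, and the moderate group in soil of 3‰ salt and pH 8.1. A second label gives the moderate soil's digit as a percentage, and the value in the titles was used here. Each group held 3 libraries, called control 1 to 3 and moderate 1 to 3 below and described by the submitters as biological replicates. The sources used here give neither the length of the treatment nor how plants were pooled. Another soil in the series, with more salt, did not enter the filter, the scaling or the spread of any value below unless it is named.

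Saline-alkali soil joins several stresses. Sodium and chloride lower the water potential around the root and enter the leaf, while a high pH makes phosphate, iron and zinc less soluble and so less available to roots. Plants short of phosphate are known to raise transcripts of SPX-domain proteins, phosphate transporters and acid phosphatases, and plants short of iron to lower ferritin, the iron store of plastids. Abscisic acid (ABA), named in the title of the series, is the hormone of water deficit, acting through receptors that inhibit type 2C protein phosphatases. Sorghum fixes carbon by the C4 route, in which malic enzyme releases carbon dioxide in the bundle sheath. The table gives most genes either no name or 1 of 636 protein family labels, so families below are read from that label, and a label does not tell which member has which role.

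Reads assigned to genes totalled 17966323 to 22449989 per library, so 3 counts, the number that a count of 0 allows, equal 0.134 to 0.167 CPM (reads of a gene per 1e+06 reads of its library), for counting error only. Replicates of a group differed by more than counting noise, the chi-square per degree of freedom running from 19.0 to 67.3, and the biological coefficient of variation was 24.4% in control and 25.8% in moderate. Levels below are CPM normalised between libraries by the TMM method, and changes are log2 of moderate over control with a standard error (SE). A gene was called when its Benjamini-Hochberg adjusted p in edgeR's quasi-likelihood F-test (2-sided, over all genes tested) was under 0.05. Chlorophyll-binding proteins, Rubisco and most C4 enzymes carry no name in the table, so the leaf label was not checked against them. In leaf tissue taken whole, fewer cells of a type and less RNA per cell cannot be told apart.

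Nearly as many genes rose as fell. Of the 21109 genes tested, 4815 were called higher (22.8%) and 4688 lower (22.2%) in moderate leaves, 45% in all. The groups did not overlap for 57.9% of tested genes, and 25.9% were both called and changed at least 2-fold. Calls ranged in log2 from -10.73 to 12.41, with a median size of 1.14, and the median change of all tested genes was 0.03. Large rises outnumbered large falls, with 1231 genes at least 4-fold higher against 733 lower and 234 at least 16-fold higher against 112. This balance rests on the scaling: with column totals as the only scaling the median change was 0.49, and 9022 genes were called higher and 2303 lower.

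The direction of change went with abundance. Among genes averaging under 1 CPM, 17.6% were called higher and 6.45% lower, whereas of 208 genes at 500 CPM or more 16.3% were called higher and 59.6% lower, with a median log2 change of -0.85. The 20 most abundant genes summed to 159589 CPM in control and 58275 in moderate, and 14 of them fell, 1 rose and 5 were not called. Only 2 of these 20 carry a family label, so what most of the leaf's leading transcripts encode is not given in the table. The TMM factors moved with this, at 0.80 to 0.89 in control and 1.15 to 1.21 in moderate libraries, as did the share of reads taken by the 10 leading genes, at 8.23 to 10.7% and 5.43 to 6.29%; their part in the direction of the calls was not tested.

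**Figure D1:**
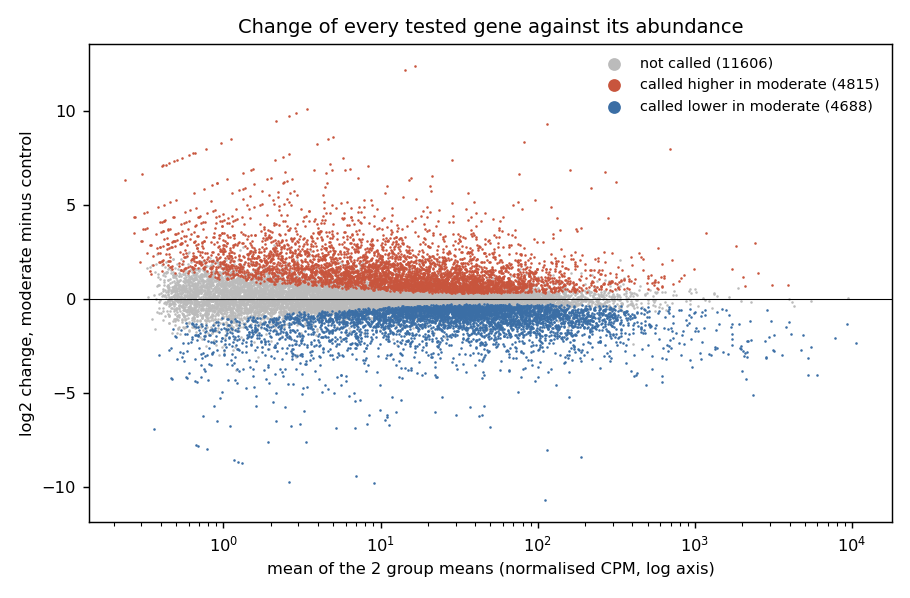
Each point is 1 of the 21109 tested genes, placed by the mean of its group means (normalised CPM, log axis) and by its log2 change, moderate minus control; red points were called higher (4815), blue lower (4688) and grey not called. At the right, among the most abundant genes, most points lie below 0.

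**Figure D2:**
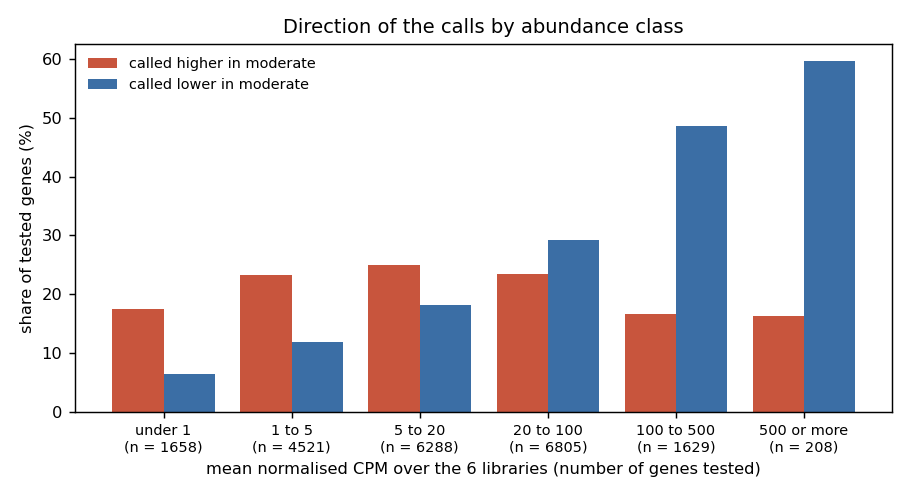
Bars give the share of tested genes called higher (red) and lower (blue) in moderate leaves by class of mean normalised CPM over the 6 libraries. The share called lower climbs from 6.45% under 1 CPM to 59.6% at 500 CPM or more.

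Loss of the leading transcripts could be followed in each library. Sobic.001G177000, with no family label (chromosome 1, 14892135 to 14893503), stood at 21381, 16252 and 15579 CPM in control and 2087, 3667 and 4528 in moderate (log2 change -2.37, SE 0.36, edgeR adjusted p = 0.0021; not called with all 9 libraries in the fit). Sobic.009G132900, also without a label, stood at 14601, 12151 and 10845 CPM in control and 2421, 3014 and 3396 in moderate (log2 change -2.09, SE 0.26, edgeR adjusted p = 0.000947). Sobic.010G160700 showed the largest proportional loss among these 3, at 14956, 10700.5 and 8173 CPM in control and 555, 679 and 834 in moderate (log2 change -4.03, SE 0.34, edgeR adjusted p = 0.000242). No moderate library reached the lowest control library for any of them. Sobic.003G209900 and Sobic.010G241000 fell as well, by -4.07 and -3.13 on the log2 scale. The loss was not general to all leading genes: Sobic.002G384400, named after its values were seen, stood at 10018, 8240.1 and 9362 CPM in control and 8198, 9418 and 10944 in moderate and its groups overlapped (log2 change 0.05).

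The largest gains in reads came from Sobic.008G049200 and Sobic.003G437800, again without family labels. Sobic.008G049200 stood at 471, 488 and 428 CPM in control and 4261, 2436 and 2908 in moderate (log2 change 2.79, SE 0.26, edgeR adjusted p = 0.000305). Sobic.003G437800 stood at 323, 407 and 937 CPM in control and 5893, 2052 and 4935 in moderate (log2 change 2.95, SE 0.55, edgeR adjusted p = 0.00459; log2 3.56 without control 3). In each, the lowest moderate library was more abundant than the highest control library. Sobic.003G397600, the last gene of 5 neighbours on chromosome 3 that all rose at least 2-fold, stood at 104, 165 and 309 CPM in control and 3659, 662 and 2171 in moderate (log2 3.49, or 2.88 without moderate 1). The only labelled gene among the 6 largest gains was a papain-type cysteine protease described below.

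SPX-domain proteins, which sense inositol pyrophosphates as a sign of phosphate status, rose almost throughout. Of 9 tested, 8 were called higher and 0 lower, and the median log2 change was 3.05. The gene with the widest rise, Sobic.001G259100 (chromosome 1, 31011171 to 31012741), stood at 0.538, 0.404 and 0.117 CPM in control and 569, 32.7 and 81.4 in moderate (log2 change 9.31, SE 1.45, edgeR adjusted p = 0.00222). Sobic.003G183600 stood at 0.179, 0.289 and 0.997 CPM in control and 359, 40.7 and 88.2 in moderate (log2 change 8.36, SE 1.12, edgeR adjusted p = 0.00121). Sobic.004G084900 stood at 6.1, 5.83 and 6.86 CPM in control and 103, 37.5 and 68.1 in moderate (log2 change 3.47, SE 0.36, edgeR adjusted p = 0.000487). No control library reached a moderate one, and within the moderate group replicate 1 was the highest and replicate 2 the lowest in each gene. Without moderate 1, the first of these changed by 7.32 and the second by 7.03; without control 3 the second changed by 9.40.

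The other SPX genes are given to complete the family and were not picked by the naming rule. Sobic.010G138800, Sobic.003G101000, Sobic.010G185200 and Sobic.004G339800 rose by 3.05, 2.77, 2.43 and 3.03 on the log2 scale (Sobic.010G185200 by 1.72 without moderate 1 and Sobic.004G339800 by 3.68 without control 3). Sobic.001G342400 had 3 control reads and 489 moderate reads in all, a scaled ratio of 115 (95% counting interval 39.2 to 561.3), and all 3 control reads were in control 3. Sobic.001G028500 was the exception, at 38.6, 39.5 and 36.9 CPM in control and 52.4, 38 and 53.8 in moderate, with overlapping groups and no call (log2 change 0.33, edgeR adjusted p = 0.115), although it was called higher without moderate 2 and with column totals. Summed over the 9 genes, SPX transcripts spanned 72.2 to 88.6 CPM in control and 242 to 1454 in moderate.

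**Figure D3:**
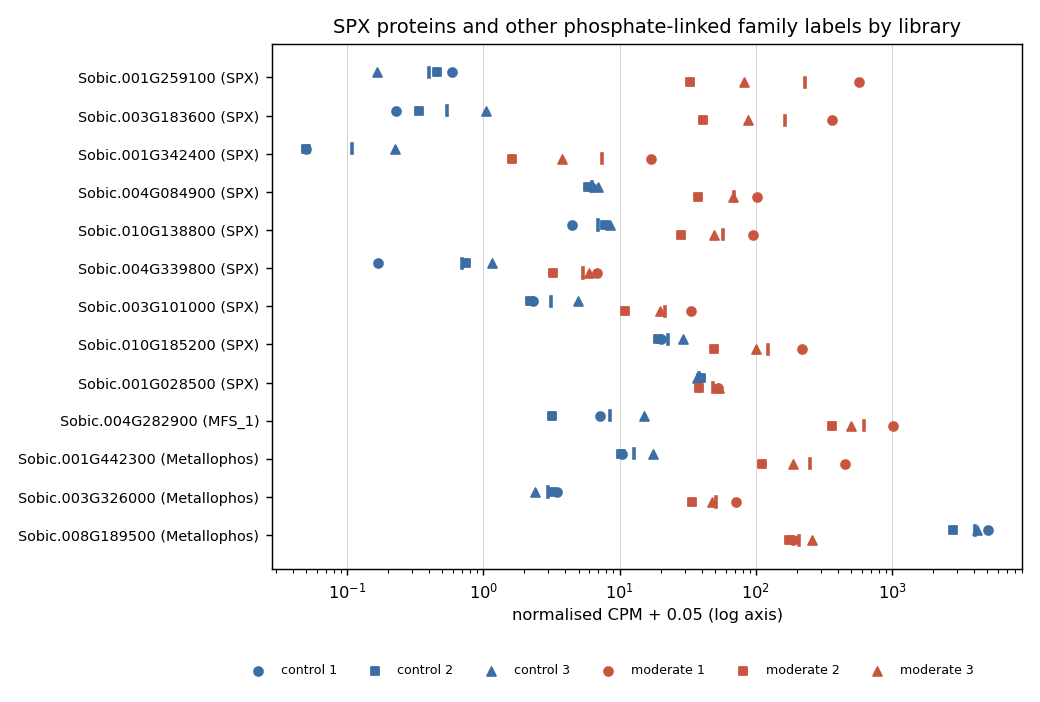
Normalised CPM (plus 0.05, log axis) of the 9 SPX genes and of 4 genes with other labels described beside them, by library; circles, squares and triangles are replicates 1, 2 and 3 of control (blue) and moderate (red), and vertical ticks are group means. The SPX genes called higher have moderate 1 at the right and moderate 2 at the left of their group, and Sobic.001G028500 overlaps.

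Families that include phosphate transporters and acid phosphatases held some of the widest rises, although their labels cover many other functions. Sobic.004G282900, of the major facilitator family MFS_1 (chromosome 4, 62464529 to 62469881), stood at 7.11, 3.12 and 15 CPM in control and 1011, 362 and 501 in moderate (log2 change 6.21, SE 0.70, edgeR adjusted p = 0.000626; 6.93 without control 3). Sobic.006G227900, of the sugar transporter family in which plant phosphate transporters also fall, stood at 0.897, 0.462 and 0.528 CPM in control and 72.8, 21.2 and 28.1 in moderate (log2 6.0, or 5.28 without moderate 1). Neither gene's groups overlapped, and moderate 1 was the highest library of both.

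The Metallophos label covers metal-dependent phosphatases, purple acid phosphatases among them. Of 53 tested, 14 were higher (26.4%) and 7 lower (13.2%). The share of higher calls was near the 26.5% of all labelled genes. Sobic.001G442300 stood at 10.3, 10.2 and 17.5 CPM in control and 453, 111 and 189 in moderate (log2 change 4.30, SE 0.57, edgeR adjusted p = 0.00111; 3.56 without moderate 1), and its neighbour Sobic.001G442200 rose by 2.85. The family's summed level was 6171 CPM in control and 2823 in moderate, and its most abundant member fell. Sobic.008G189500 stood at 5079.9, 2785 and 4202 CPM in control and 188, 174 and 258 in moderate (log2 change -4.28, SE 0.32, edgeR adjusted p = 0.000178), every control library lying far above every moderate library. Of 6 phosphatidylinositol-specific phospholipases C, which cleave a membrane phospholipid, 4 were higher and 0 lower.

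Iron-linked families changed in both directions. Both ferritins fell: Sobic.005G004500 stood at 1419.8, 1071 and 1367 CPM in control and 480, 558 and 435 in moderate (log2 change -1.39, SE 0.18, edgeR adjusted p = 0.00113), and Sobic.008G004800 at 1142, 856 and 1109 CPM in control and 572, 348 and 344 in moderate (log2 change -1.30, SE 0.25, edgeR adjusted p = 0.00507). Ferredoxin-type proteins (Fer2), small iron-sulfur electron carriers of plastids and other compartments, had 2 of 16 higher and 9 lower. A trio of adjacent Fer2 genes on chromosome 7, between 432240 and 438347, fell together. Sobic.007G004800 stood at 1517, 1134 and 874 CPM in control and 42.7, 47.3 and 72.6 in moderate (log2 change -4.44, SE 0.32, edgeR adjusted p = 0.000175), and Sobic.007G004600 and Sobic.007G004700 changed by -2.65 and -3.16. Near-identical neighbours can share reads, and how the authors' counter treated such reads is not given, so single members of a tandem group are less certain than the group. With all 9 libraries of the series in the fit neither ferritin was called.

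The FAD_binding_8 label, shared by ferric reductases, which reduce iron for uptake, and by NADPH oxidases, which make superoxide, rose in 6 of 7 members with none lower (median log2 2.23). Sobic.002G214200 stood at 3.71, 3.41 and 3.34 CPM in control and 24.2, 45.3 and 49.2 in moderate (log2 change 3.50, SE 0.29, edgeR adjusted p = 0.000232). Sobic.003G347520 stood at 18.5, 15.6 and 27.7 CPM in control and 70.2, 51.2 and 57.3 in moderate (log2 change 1.53, SE 0.23, edgeR adjusted p = 0.00197). In both, every moderate library exceeded every control library. The 1 member not called, Sobic.009G206500, overlapped (log2 change -0.09). The table also has a separate Ferric_reduct label with 1 gene, Sobic.006G093100, named after its values were seen. It fell, at 225, 305 and 121 CPM in control and 51, 50.3 and 62.7 in moderate (log2 change -1.99, SE 0.32, edgeR adjusted p = 0.00253).

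The heavy-metal-associated domain (HMA), found in metallochaperones and metal-pumping ATPases, had 15 of 28 higher and 3 lower, a median log2 change of 1.13. Sobic.004G164200 stood at 25.9, 15.4 and 39.8 CPM in control and 567, 433 and 604 in moderate (log2 change 4.31, SE 0.37, edgeR adjusted p = 0.000253). Sobic.006G053000 rose from under 1 CPM, at 0.598, 0.52 and 0.587 CPM in control and 7.27, 15.1 and 10.5 in moderate (log2 change 4.26, SE 0.35, edgeR adjusted p = 0.000231). The family's most abundant member moved the other way: Sobic.001G374400 changed by -0.78 (edgeR adjusted p = 0.00988), a call lost with column totals and with all 9 libraries. Oligopeptide transporters (OPT), a family that includes carriers of metal chelates, had 7 of 16 higher and 2 lower (4 lower without control 3, and 1 without control 1, control 2, moderate 1 or moderate 3), and Sobic.001G087700 stood at 15.8, 16.1 and 24.1 CPM in control and 112, 69.9 and 79.5 in moderate (log2 2.22, not called with all 9 libraries). Its most abundant member, Sobic.006G164300, was not called at 0.13, except as higher with column totals. Blue copper proteins (Cu_bind_like), small electron carriers, were higher in 11 and lower in 2 of 24, with 7 higher without control 1 or control 2.

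Labels of protein synthesis and RNA handling, with SET-domain methyltransferases beside them, held more lower than higher calls. Of those described here, 3 turned with column totals. All but the translational GTPases were picked after their values were seen, so their shared direction is not an independent result. Abundant genes in general fell more often, with 48.6% of genes at 100 to 500 CPM called lower against 22.2% of all tested genes. Translational GTPases (GTP_EFTU), the elongation factors that carry aminoacyl-tRNA or move the ribosome, had 18 of 28 lower and 1 higher, with a median log2 change of -0.70. Their summed level spanned 8418 to 9019 CPM in control and 3389.9 to 3895 in moderate. Sobic.004G202200 stood at 1626, 1543 and 1438 CPM in control and 497, 477 and 410 in moderate (log2 change -1.73, SE 0.16, edgeR adjusted p = 0.000304). Sobic.004G128900 stood at 1266, 1127 and 1125 CPM in control and 233, 308 and 292 in moderate (log2 change -2.08, SE 0.17, edgeR adjusted p = 0.000218). Every moderate library lay well below every control library for both genes. The single GTPase that rose, Sobic.003G280500, stood at 0.299, 0.347 and 0.293 CPM in control and 24.8, 5.98 and 2.01 in moderate, with most of the rise in moderate 1 (log2 5.10, or 3.65 without it; not called by limma on FPKM).

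Aminoacyl-tRNA synthetases, which load tRNAs with their amino acids, were lower in 16 of 21 with none higher. Sobic.005G184300 stood at 82, 69.3 and 78 CPM in control and 24.5, 22.9 and 23.5 in moderate (log2 change -1.69, SE 0.11, edgeR adjusted p = 0.000153), and Sobic.002G293600 changed by -1.91. Of 9 genes with the S1 RNA-binding domain 7 were lower and 0 higher (1 higher without moderate 2). The most abundant of these, Sobic.002G405100, stood at 955, 809.7 and 786 CPM in control and 139, 173 and 145 in moderate (log2 change -2.48, SE 0.16, edgeR adjusted p = 0.000155). Of 9 with the S4 domain, found in ribosomal proteins and RNA-modifying enzymes, 6 were lower and 0 higher. Pentatricopeptide repeat (PPR) proteins, which process organelle RNAs, had 14 of 67 lower and 1 higher (0 higher without any 1 of the control libraries or moderate 1); their share of lower calls, 20.9%, was near that of all tested genes. Sobic.007G201400 was among those that fell, at 42.5, 36.8 and 40.7 CPM in control and 8.48, 10.9 and 7.12 in moderate (log2 -2.18).

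DEAD-box helicases, which unwind RNA, had 38 of 61 lower and 1 higher, or 11 and 8 with column totals, and 0 were higher without any 1 library other than moderate 2. Sobic.001G028100, the most abundant, stood at 746, 718 and 836 CPM in control and 199, 376 and 277 in moderate (log2 change -1.43, SE 0.24, edgeR adjusted p = 0.00292), and was not called with all 9 libraries, where 5 helicases were lower and 0 higher. RNA recognition motif proteins were lower in 78 and higher in 16 of 199, a split that turned to 23 and 60 with column totals. Sobic.002G152800, one that fell strongly, stood at 268, 233 and 222 CPM in control and 47.9, 49.4 and 54.3 in moderate (log2 change -2.25, SE 0.13, edgeR adjusted p = 0.000144). The same scaling also turned KH-domain RNA-binding proteins, from 10 lower and 0 higher of 21 to 0 and 5, and SET-domain histone methyltransferases, from 14 and 2 of 34 to 4 and 9. Over all tested genes it gave a median change of 0.49, with 9022 called higher and 2303 lower. Measured from the median of all tested genes, the family medians went from -0.28 to -0.29 (RNA recognition motif), -0.34 to -0.33 (KH) and -0.303 to -0.298 (SET). A change of scaling shifts every gene by nearly the same amount, so such differences hardly move for any family. They therefore cannot decide between the 2 sets of calls. Leaving out single libraries took the KH count to 5 or 6 lower (any library other than control 3) with 1 higher without control 3 or moderate 1, the SET counts to 9 lower (control 1 or control 2) and to 0 or 1 higher (any library other than control 3), and the higher count of RNA recognition motif genes to 9 or 10 (any control library or moderate 2). Under column totals the elongation factor, tRNA synthetase, S1 and S4 families still held more lower than higher calls, at 12 and 2, 8 and 1, 5 and 2, and 3 and 0.

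**Figure D4:**
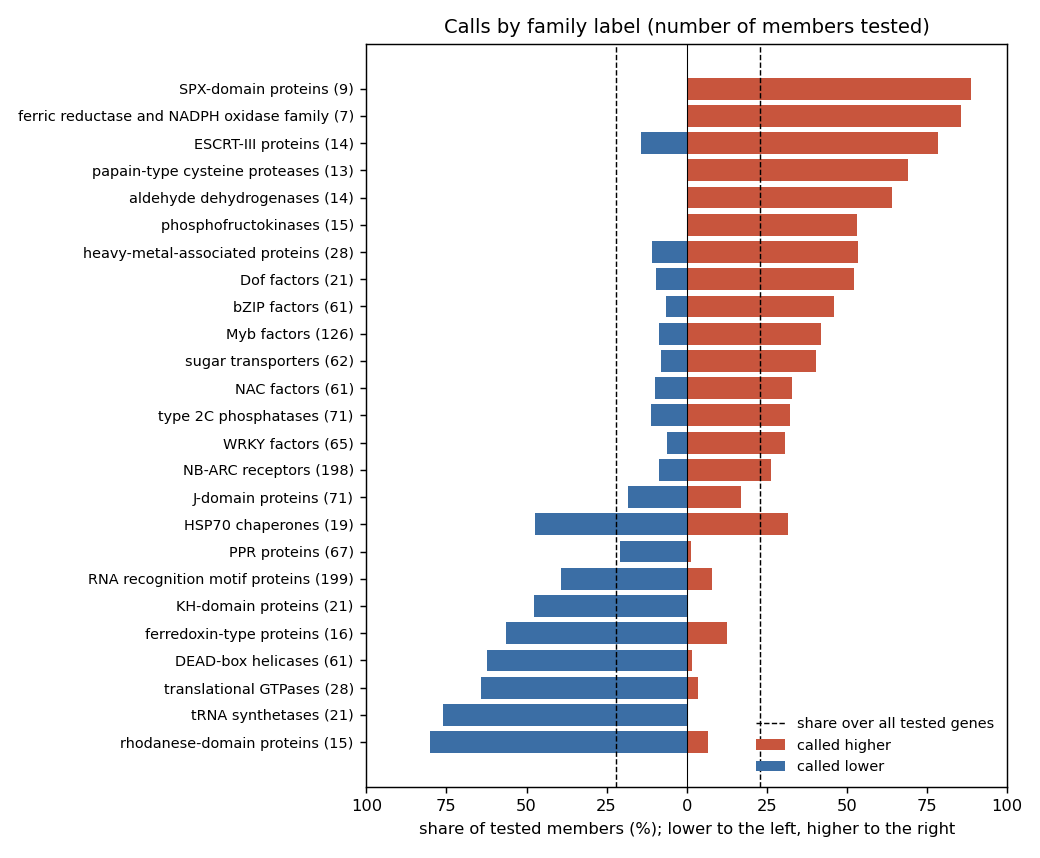
Share of tested members called higher (red, to the right) and lower (blue, to the left) in moderate leaves for 25 family labels, with the number tested in brackets; dashed lines mark the shares over all tested genes, 22.8% and 22.2%. The labels from SPX-domain proteins to NB-ARC receptors have more higher than lower calls, and those from J-domain proteins to rhodanese-domain proteins more lower than higher; with column totals the larger side turns for RNA recognition motif, KH-domain, HSP70 and J-domain proteins.

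Rhodanese-domain proteins, sulfur-transfer domains common in plastid proteins, were lower in 12 of 15 and higher in 1. Sobic.003G387800 stood at 695, 548 and 620.2 CPM in control and 93.7, 114 and 131 in moderate (log2 change -2.46, SE 0.18, edgeR adjusted p = 0.000176). Prolyl isomerases of the FKBP type, many of which act in the thylakoid lumen, had 10 of 21 lower and 4 higher (8 and 8 with column totals, and 2 higher without any one library other than moderate 2). Among them Sobic.010G219500 had one of the smallest adjusted p-values of the comparison, at 136, 131 and 157 CPM in control and 19.3, 17.9 and 20.7 in moderate (log2 change -2.87, SE 0.13, edgeR adjusted p = 9.91e-05). Both groups of values were tight and far apart in this gene.

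Carbon metabolism divided by member and by enzyme. Malic enzyme, which decarboxylates malate and in C4 leaves feeds the bundle sheath, had 5 of 7 genes higher and 2 lower (1 lower without control 1, control 2 or moderate 2). The most abundant, Sobic.003G036200 (chromosome 3, 3317184 to 3322427), fell: it stood at 606, 748 and 754 CPM in control and 168, 252 and 192 in moderate (log2 change -1.78, SE 0.20, edgeR adjusted p = 0.000568). Minor members rose, with Sobic.003G280900 at 10.2, 12 and 6.51 CPM in control and 43.6, 41.6 and 46.5 in moderate (log2 change 2.19, SE 0.22, edgeR adjusted p = 0.00042) and Sobic.002G309400 changed by 1.64. The family's summed level was 847 CPM in control and 439 in moderate, and which member serves the C4 cycle is not given in the table.

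Transporters of dicarboxylates share the Na_sulph_symp label with sodium and sulfate symporters, and 2 of 7 fell while 1 rose. Sobic.008G112300 stood at 740.5, 628 and 822 CPM in control and 52.7, 109.9 and 114 in moderate (log2 change -2.98, SE 0.31, edgeR adjusted p = 0.000493), and Sobic.002G233700 changed by -2.20. Adenylate kinases, which interconvert adenine nucleotides, were higher in 6 and lower in 4 of 12, and the abundant Sobic.007G009200 stood at 1359, 1129 and 918 CPM in control and 188, 227 and 321 in moderate (log2 change -2.21, SE 0.25, edgeR adjusted p = 0.000673). In malic enzymes and adenylate kinases alike, the most abundant member fell while others rose.

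Phosphofructokinases, which commit sugars to glycolysis, were higher in 8 of 15 with 0 lower, and in 5 without control 2 or without moderate 1. Sobic.004G261800 stood at 0.478, 0.173 and 0.528 CPM in control and 9.44, 4.26 and 7.78 in moderate (log2 change 4.17, SE 0.49, edgeR adjusted p = 0.000709). Aldehyde dehydrogenases, which oxidise aldehydes formed under stress, were higher in 9 of 14 with 0 lower. Sobic.003G203600 stood at 5.08, 3.41 and 1.23 CPM in control and 106, 62.2 and 65.2 in moderate (log2 change 4.58, SE 0.47, edgeR adjusted p = 0.000454), and Sobic.002G215700 changed by 2.37. Sugar transporters were higher in 25 and lower in 5 of 62 (2 lower without control 2, 3 without moderate 3), and their summed level spanned 1708 to 1882 CPM in control and 2343 to 2540.3 in moderate.

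Families that hold ABA components gave no single direction. Carotenoid cleavage dioxygenases (RPE65), which include the enzymes that commit carotenoids to ABA, had 3 of 4 lower and 0 higher, or 1 lower with column totals. Without control 1, control 2, moderate 2 or moderate 3, 1 was lower, and without moderate 3 another 1 was higher. Sobic.004G268500 stood at 1991, 1804 and 1007 CPM in control and 469.6, 498 and 522 in moderate (log2 change -1.69, SE 0.27, edgeR adjusted p = 0.00238), and with all 9 libraries no member was called. Type 2C protein phosphatases were higher in 23 and lower in 8 of 71 (5 lower without moderate 3), while their summed levels overlapped, spanning 2542 to 2641 CPM in control and 2587 to 2800.3 in moderate. Sobic.009G161800 stood at 8.07, 6.06 and 9.97 CPM in control and 85.8, 67.1 and 65.3 in moderate (log2 change 3.18, SE 0.21, edgeR adjusted p = 0.000155). In the other direction Sobic.006G064100 stood at 238, 202 and 241 CPM in control and 65.1, 46.8 and 57.2 in moderate (log2 change -2.01, SE 0.16, edgeR adjusted p = 0.000209). Neither gene's groups overlapped.

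Basic leucine zipper factors (bZIP), the family of the factors that bind ABA-response elements, had 28 of 61 higher and 4 lower. Sobic.003G368300 stood at 2.45, 2.77 and 1.17 CPM in control and 21.4, 12.9 and 13.2 in moderate (log2 change 2.89, SE 0.37, edgeR adjusted p = 0.00095), and Sobic.003G021800 fell, at 38.1, 17.6 and 48.8 CPM in control and 1.44, 2.77 and 1.9 in moderate (log2 change -4.08, SE 0.44, edgeR adjusted p = 0.000524). GRAM-domain proteins, membrane-lipid-binding proteins of which some are ABA-responsive in other plants, were higher in 7 and lower in 2 of 12 (1 lower without control 1 or moderate 3), with Sobic.002G378800 at 18.1, 20.3 and 14.9 CPM in control and 62.4, 55 and 64.2 in moderate (log2 1.77).

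Ion transporters held more higher than lower calls. Genes with the sodium/proton exchanger label were higher in 5 and lower in 2 of 11 (1 lower without control 1). The label does not tell which ion each member moves. Sobic.005G201000 stood at 22.9, 25.4 and 21.2 CPM in control and 64.9, 56.6 and 56.9 in moderate (log2 change 1.36, SE 0.12, edgeR adjusted p = 0.000268). Their summed level spanned 653 to 733 CPM in control and 655 to 741 in moderate, so the summed levels overlapped. Potassium transporters (K_trans) were higher in 8 and lower in 3 of 22, but higher in 5 and lower in 0 without control 2 or without moderate 3, and lower in 1 without control 1 or moderate 1. Sobic.006G061300 stood at 92.8, 58.4 and 37.5 CPM in control and 275, 212 and 324 in moderate (log2 change 2.10, SE 0.33, edgeR adjusted p = 0.00241).

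Myb, bZIP, Dof, CAMTA-type, NAC, WRKY and heat shock factors had a larger share of higher calls than the 22.8% of all genes and the 26.5% of labelled genes. NAC (32.8%), WRKY (30.8%) and heat shock factors (28.6%) were nearest to the labelled share. Labelled genes as a whole were called lower in 19.6%. Myb factors, a large family of development and stress regulators, had 53 of 126 higher and 11 lower, or 7 lower without control 1 or moderate 3. Sobic.009G253300 stood at 2.21, 0.866 and 1.82 CPM in control and 59.5, 48.9 and 56.7 in moderate (log2 change 5.07, SE 0.30, edgeR adjusted p = 0.000144). Sobic.001G078900 was among the falls of that family, at 308, 249 and 474 CPM in control and 48.9, 24.1 and 30.3 in moderate (log2 change -3.32, SE 0.35, edgeR adjusted p = 0.000496). Dof factors had 11 of 21 higher and 2 lower (1 lower without control 1, control 3, moderate 1 or moderate 3), and CAMTA-type factors, which bind calmodulin, 5 of 7 and 0 (3 higher without moderate 3). GRAS factors had 10 of 46 higher, a share of 21.7% that is near the background, and 1 lower, or 3 lower without control 2 or control 3 and 2 without moderate 1 or moderate 2.

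Stress-linked factor families differed in their counts. NAC factors were higher in 20 and lower in 6 of 61, and Sobic.008G021800 stood at 1.37, 1.91 and 0.997 CPM in control and 39.6, 39.7 and 28.6 in moderate (log2 change 4.65, SE 0.27, edgeR adjusted p = 0.000144). WRKY factors, known from defence and senescence, were higher in 20 and lower in 4 of 65. Sobic.003G037400 fell, at 147, 117 and 68.9 CPM in control and 12.1, 13.2 and 25 in moderate (log2 change -2.72, SE 0.37, edgeR adjusted p = 0.00135), while more of its family was higher than lower. Heat shock factors were higher in 6 and lower in 1 of 21 (2 lower without control 2, 0 without moderate 3). Without control 2, moderate 1 or moderate 2, 4 were higher, so their share lay near the background. Among them Sobic.010G164400 stood at 0.717, 0.347 and 0.235 CPM in control and 16.5, 21.4 and 12.7 in moderate (log2 change 5.27, SE 0.40, edgeR adjusted p = 0.00019). AP2/ERF factors were almost even, at 16 higher and 13 lower of 73, with more lower than higher without control 1, control 2 or moderate 2, and runs of 3 adjacent AP2 genes on chromosomes 2 and 7 fell together.

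A few regulators stood out by size. Sobic.004G034100, an RWP-RK factor (chromosome 4, 2753459 to 2756827), a family whose best-known plant members are the nitrate-responsive NIN-like proteins, was among the 10 largest falls of labelled genes with at least 5 CPM. It stood at 15.8, 18.2 and 16.1 CPM in control and 0.241, 0.156 and 0.271 in moderate (log2 change -6.20, SE 0.25, edgeR adjusted p = 9.86e-05). Of the 8 RWP-RK genes tested 3 were lower and 1 higher, turning to 2 and 3 with column totals, and 0 were higher without control 1, control 2, moderate 2 or moderate 3. Sobic.006G175500, a helix-loop-helix factor, rose from under 1 CPM, at 0.239, 0.231 and 0.587 CPM in control and 51.6, 33.4 and 8.13 in moderate (log2 change 6.44, SE 0.83, edgeR adjusted p = 0.00105). Helix-loop-helix factors as a family were almost even, at 14 higher and 12 lower of 64.

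Some neighbouring genes moved together. There were 21 runs of at least 3 consecutive tested genes that share a label and a direction, 14 higher and 7 lower. Without regard to label, 48 runs of at least 4 consecutive genes were all called one way and changed at least 2-fold, 26 higher and 22 lower. Of all tested genes 25.9% were called and changed at least 2-fold. No expected number of such runs was computed, so whether they exceed it is not known, and tandem copies may share reads.

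A run near the start of chromosome 1, from 1042020 to 1171177, was lower in moderate leaves. It holds 5 adjacent tested genes, Sobic.001G012100 to Sobic.001G012500: 1 without a label, a pair of cytochrome P450s, a UDP-glycosyltransferase and a glutathione transferase. Sobic.001G012300, a P450, stood at 225, 81.1 and 380.5 CPM in control and 0.433, 0.0781 and 2.01 in moderate (log2 change -8.05, SE 1.00, edgeR adjusted p = 0.000907; -9.85 without moderate 3). Sobic.001G012200, the other P450, stood at 309, 225 and 347 CPM in control and 25.4, 17.1 and 17.4 in moderate (log2 change -3.88, SE 0.24, edgeR adjusted p = 0.00015). Sobic.001G012400, the glycosyltransferase, stood at 379, 227 and 312 CPM in control and 12.7, 4.41 and 7.55 in moderate (log2 change -5.22, SE 0.43, edgeR adjusted p = 0.000224). All 3 were far lower in every moderate library than in any control library.

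The edges of that run changed less. Sobic.001G012500, the transferase, stood at 671, 872 and 633 CPM in control and 426, 279.9 and 164 in moderate (log2 change -1.32, SE 0.34, edgeR adjusted p = 0.0162). Sobic.001G012600, a MatE-type transporter just past the run, stood at 118, 162 and 138 CPM in control and 95.1, 109 and 68.3 in moderate (log2 change -0.62, SE 0.20, edgeR adjusted p = 0.0392). Neither kept its call with column totals or with all 9 libraries, and the edgeR adjusted p of the first rose above 0.05 without control 2 (0.0541) and without moderate 2 (0.0522). For the second it did so without any one library other than moderate 2. Sorghum is known for a cluster of P450, glycosyltransferase, glutathione transferase and transporter genes that makes and stores the cyanogenic glucoside dhurrin, and the table does not say whether these neighbours are that cluster. Sobic.001G012100 and Sobic.001G012600 were named for their position after their values were seen.

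**Figure D5:**
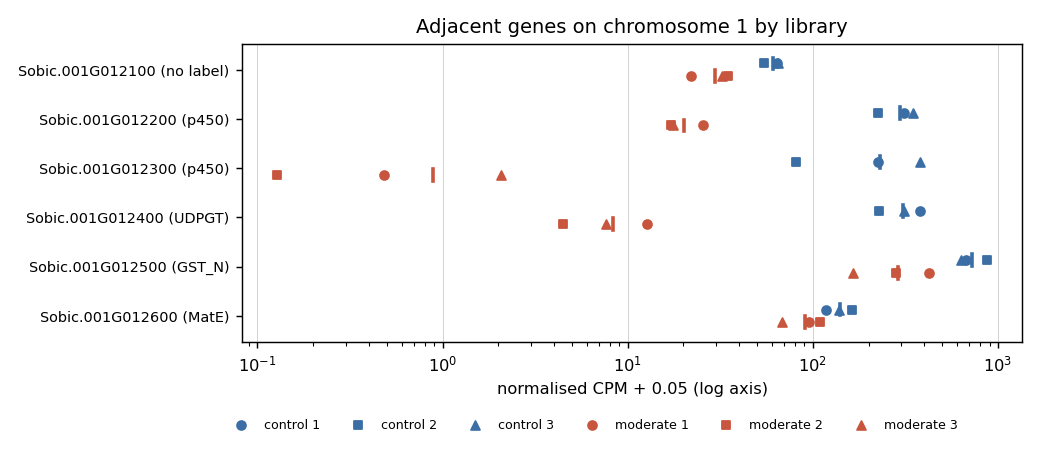
Normalised CPM (plus 0.05, log axis) of 6 adjacent genes of chromosome 1 by library; circles, squares and triangles are replicates 1, 2 and 3 of control (blue) and moderate (red), and vertical ticks are group means. The 3 middle genes (both P450s and the glycosyltransferase) are far lower in all moderate libraries, and the outer genes shift less.

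Secondary metabolism otherwise held rises as well as falls, as did labelled genes as a whole (26.5% higher and 19.6% lower). P450s were higher in 61 (35.7%) and lower in 29 (17.0%) of 171. UDP-glycosyltransferases were higher in 38 (30.9%) and lower in 21 (17.1%) of 123, the nearest of these 3 families to the labelled shares. 2-oxoglutarate-dependent oxygenases were higher in 25 (39.7%) and lower in 7 (11.1%) of 63. Sobic.004G201100, a P450, stood at 2.51, 0.924 and 4.81 CPM in control and 384, 333 and 231 in moderate (log2 change 6.84, SE 0.56, edgeR adjusted p = 0.000223; 7.53 without control 3). The chalcone and stilbene synthase family, whose products start flavonoids, had 2 higher and 3 lower of 13, but Sobic.005G136200 carried its total. That gene stood at 8.13, 3.99 and 9.8 CPM in control and 541, 484 and 266 in moderate (log2 change 5.88, SE 0.44, edgeR adjusted p = 0.000183), and the family's summed level was 56.5 CPM in control and 499 in moderate. Sobic.005G137300, on the same chromosome, rose too (log2 change 4.73, SE 0.66, edgeR adjusted p = 0.00138; 5.43 without control 1).

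Among defence-linked labels, thaumatin-like proteins, known as pathogenesis-related proteins, had 6 of 20 lower and 3 higher, with 13 lower without control 3 and 3 without moderate 3, as many as were higher. Sobic.001G439100 stood at 54.2, 32.7 and 44.7 CPM in control and 0.867, 0.195 and 0.929 in moderate (log2 change -6.05, SE 0.46, edgeR adjusted p = 0.000191). Sobic.008G182700, in a run of 3 thaumatin genes that fell on chromosome 8, stood at 115, 178 and 27.2 CPM in control and 19.5, 5.04 and 8.17 in moderate (log2 -3.30, or -4.01 without moderate 1; not called with all 9 libraries). NB-ARC proteins, the nucleotide-binding immune receptors, were higher in 52 and lower in 17 of 198, with 33 higher without moderate 3 and 11 lower without control 1 or control 2. Their share of higher calls, 26.3%, was near that of all labelled genes. Protein kinases had 300 of 913 higher and 104 lower (69 lower without control 1), and Sobic.006G251000 was an abundant kinase that fell, at 804, 588 and 615 CPM in control and 50.8, 72.3 and 63.5 in moderate (log2 change -3.43, SE 0.21, edgeR adjusted p = 0.000146).

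The labels of protein breakdown and membrane traffic given here and in the next paragraph held more higher than lower calls. All were picked after their values were seen. Over all tested genes 22.8% were called higher, and over labelled genes 26.5%. Other labels of these themes were proteasome subunits, at 8 higher and 2 lower of 23, and SNARE proteins, at 4 and 2 of 11. The SNARE counts became 1 and 2 without control 1 or moderate 3. Papain-type cysteine proteases (Peptidase_C1), many of which work in the vacuole, were higher in 9 of 13 and lower in 0 (1 lower without control 3), and their summed level went from 4191 to 8446 CPM. Sobic.004G142800 stood at 1289, 1464 and 1065 CPM in control and 3010.1, 2891 and 2479 in moderate (log2 change 1.13, SE 0.20, edgeR adjusted p = 0.00357). Sobic.002G217200, among the 6 largest gains in reads, stood at 926, 957 and 712 CPM in control and 2646, 2569 and 2532 in moderate (log2 change 1.58, SE 0.19, edgeR adjusted p = 0.000733). Each rose in all 3 moderate libraries to a similar level, and neither was called with all 9 libraries. Metacaspases, proteases linked to cell death, were higher in 5 and lower in 1 of 8; a tandem run of 4 on chromosome 1 (64072396 to 64104184) rose together. Sobic.001G351400 of that run stood at 53.5, 58.7 and 50.2 CPM in control and 434, 145 and 236 in moderate (log2 change 2.33, SE 0.38, edgeR adjusted p = 0.00257).

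Serine carboxypeptidases were higher in 12 and lower in 4 of 34, while their summed level was 1860.1 CPM in control and 1206 in moderate. The abundant Sobic.004G335500 fell, and stood at 1089.8, 854 and 865 CPM in control and 2.74, 44.2 and 67.6 in moderate (log2 change -4.61, SE 0.97, edgeR adjusted p = 0.00752; -5.31 without moderate 3), moderate 1 being far below the other two. ESCRT-III proteins, which cut membranes when vacuole-bound vesicles form, were higher in 11 and lower in 2 of 14 (1 lower without control 1 or moderate 2), with a median log2 change of 0.69, and Sobic.002G083800 stood at 30.8, 31 and 26.3 CPM in control and 61.4, 53.1 and 62.9 in moderate (log2 change 1.01, SE 0.12, edgeR adjusted p = 0.000795). The groups did not overlap for that gene. Ras-type GTPases, switches of vesicle traffic, were higher in 27 and lower in 4 of 51, with 1 lower without control 1 and 2 without control 2. Ubiquitin-conjugating enzymes were higher in 20 and lower in 2 of 46, though higher in 10 to 12 without any 1 library other than moderate 2, and lower in 1 without any control library or moderate 2.

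Antioxidant and chaperone families held calls in both directions, as did all tested genes as a whole (22.8% higher and 22.2% lower). Glutathione transferases lay near or below those shares, at 9 higher (20.9%) and 7 lower (16.3%) of 43. Their counts were 8 and 11 without control 3, and 7 and 7 without moderate 1. Catalases, which remove hydrogen peroxide, fell in the abundant pair and rose in the minor member. Sobic.004G011566 stood at 1864, 2259.8 and 1948 CPM in control and 975, 877 and 563 in moderate (log2 change -1.33, SE 0.24, edgeR adjusted p = 0.00405). Sobic.001G517700 stood at 1441, 1175 and 1232 CPM in control and 393, 449.7 and 329 in moderate (log2 change -1.72, SE 0.18, edgeR adjusted p = 0.000495). Sobic.010G274500 went the other way, at 79.4, 93.6 and 85.5 CPM in control and 152, 162 and 181 in moderate (log2 change 0.93, SE 0.12, edgeR adjusted p = 0.00116), and with all 9 libraries only Sobic.001G517700 was called. The summed level of the 3 catalases spanned 3265 to 3528 CPM in control and 1072 to 1519 in moderate. Glutathione peroxidases had 2 higher and 2 lower of 7 (1 higher without any 1 library other than moderate 2), and Sobic.010G067100 fell, at 360.1, 328 and 289 CPM in control and 49.99, 64.3 and 71 in moderate (log2 change -2.40, SE 0.17, edgeR adjusted p = 0.000176).

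HSP70 chaperones had 6 of 19 higher and 9 lower, turning to 9 and 2 with column totals. Without control 2, control 3 or moderate 3, 5 were lower, as many as were higher without control 3 or moderate 3. Sobic.003G350700 rose, at 8.61, 7.39 and 4.93 CPM in control and 67.1, 55.9 and 42.2 in moderate (log2 change 2.98, SE 0.26, edgeR adjusted p = 0.000256), and the abundant Sobic.001G129000 fell, at 629.8, 506 and 491 CPM in control and 91.2, 101 and 98.4 in moderate (log2 change -2.48, SE 0.15, edgeR adjusted p = 0.000146). J-domain co-chaperones had 12 higher (16.9%) and 13 lower (18.3%) of 71, below the shares over all tested genes. Their counts were 33 and 7 with column totals, and the larger side was higher without control 2, moderate 1 or moderate 3 (8 lower without moderate 3). Sobic.006G265400 was among their rises, at 57.7, 59.6 and 118 CPM in control and 433, 414 and 499 in moderate (log2 change 2.52, SE 0.30, edgeR adjusted p = 0.000769).

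Hormone- and nutrient-linked families held calls in both directions, as did all tested genes as a whole (22.8% higher and 22.2% lower). Lipoxygenases, which start jasmonate synthesis, had 4 of 11 higher and 1 lower (2 and 2 without moderate 3, and 2 lower without control 3), and Sobic.001G125700 stood at 1.32, 2.43 and 1.76 CPM in control and 26.9, 39.4 and 45.8 in moderate (log2 change 4.34, SE 0.30, edgeR adjusted p = 0.000163). The most abundant lipoxygenase, Sobic.004G078600, overlapped between groups, at 4784, 4680.5 and 3661 CPM in control and 3267, 4398 and 4178 in moderate. Small auxin-induced genes (Auxin_inducible) were lower in 12 and higher in 7 of 28, 6 of the lower ones lying side by side on chromosome 2 (66530881 to 66560470). Sobic.002G285300 of that run stood at 26.2, 15.9 and 26.8 CPM in control and 1.35, 0.313 and 0.271 in moderate (log2 -5.20, or -6.27 without moderate 1).

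Sulfate transporters moved in opposite ways, with 4 of 9 higher and 4 lower. Sobic.010G033800 stood at 0.538, 0.809 and 1.06 CPM in control and 32.3, 8.95 and 27.4 in moderate (log2 change 4.82, SE 0.56, edgeR adjusted p = 0.000698), whereas Sobic.001G470600 stood at 162, 109 and 137 CPM in control and 10.8, 31.9 and 17.5 in moderate (log2 change -2.76, SE 0.39, edgeR adjusted p = 0.00144). Amino acid transporters were higher in 19 and lower in 9 of 49, or higher in 11 without control 2. CCT-domain proteins, which include clock and flowering regulators, had 5 higher and 6 lower of 25 (10 and 5 with column totals). Their transcripts follow the time of day, and the sources used here give no sampling time.

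Markers of dividing cells were counted because young leaves differ in how many such cells they hold. Histones were higher in 12 and lower in 2 of 32 (8 and 4 without control 2, 8 and 1 without moderate 1, and 1 lower without control 1 or moderate 2), with summed levels spanning 1302 to 1496 CPM in control and 2056 to 2132 in moderate. Kinesins had 4 higher and 7 lower of 27 (12 and 3 with column totals, and 8 higher without moderate 1) and sums spanning 425 to 496 CPM in control and 300 to 435 in moderate. MCM helicases, which open DNA for replication, were near the floor: 2 of 9 passed the filter, neither was called, and their sum spanned 1.55 to 2.82 CPM in control and 2.26 to 2.94 in moderate. The label Cyclin_C covered 6 tested genes, with 0 higher and 1 lower (0 lower without control 1, control 2 or moderate 3, and 2 without control 3). The part of cell make-up in the gene groups above was not tested.

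Some genes were read in 1 group alone. Of 4815 genes called higher, 21 had no count in any control library and 75 had 1 to 3 counts there. Of 4688 called lower, 8 had none in any moderate library and 13 had 1 to 3. The TMM factors were 0.80 to 0.89 in control and 1.15 to 1.21 in moderate libraries. The same normalised level thus gives fewer reads in control, so these counts cannot be set directly against each other. Sobic.007G211900 and Sobic.003G102800, without labels, had 2222 and 1954 moderate reads and 0 in control, at least 524-fold and 461-fold higher against a floor of 3 counts over the group. In moderate 1 to 3 the first stood at 67, 7.27 and 24.9 CPM and the second at 49.99, 10.6 and 25. Sobic.002G051300, with the label of flavin-dependent monooxygenases, had 268 control reads and 0 in moderate, at least 126-fold lower.

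The widest changes among unlabelled genes of at least 5 CPM included Sobic.004G157300, at 3.53, 6.76 and 6.04 CPM in control and 2908, 418 and 842 in moderate (log2 change 7.99, SE 0.89, edgeR adjusted p = 0.000595; 6.85 without moderate 1). Sobic.005G152600 went the opposite way, at 357, 45 and 264 CPM in control and 0.144, 0.0781 and 0.155 in moderate (log2 change -10.73, SE 1.06, edgeR adjusted p = 0.000395). Sobic.008G105500 had 929 control reads and 1 moderate read, a scaled ratio of 1313 (95% counting interval 235 to 51908).

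Genes with larger rises had a wider relative spread over the moderate libraries. The classes of rise come from these same libraries, so a single high library raises both values. Among the 234 genes at least 16-fold higher, moderate 1 was the highest library in 54.3% and moderate 2 the lowest in 48.7%, and the median ratio of SD to mean over the moderate libraries was 0.475. Among genes called higher by 4- to 16-fold, moderate 1 was highest in 54.2% and that ratio was 0.324. Below 4-fold the values were 47.9% and 0.149.

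Loci that the table lists outside the reference annotation leaned lower. Of 850 tested, 113 were higher and 240 lower (28.2%). Of the 113 whose description names a transposon-type protein 15 were higher and 38 lower, and of the 632 without a description 88 were higher and 172 lower. The authors' deposited table called 9999 genes for the same comparison at an adjusted p under 0.05, 5070 higher and 4929 lower. Of the 9503 genes called here 9253 were also called in the authors' deposited table, and all 9503 had the same sign there.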

How the data were processed

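RNA was extracted from leaves with Trizol and sequenced on Illumina libraries, per the labels' protocols. Alignment used HISAT2 2.0.5 and the authors' fold changes DESeq2 1.20.0, per the submitters' processing notes; the sources used here give no read counter, genome build or strandedness, so overlapping and antisense genes may share reads. The raw counts deposited by the authors, whole numbers per gene with no normalisation, were used for all main results. The FPKM deposited by the authors (reads per length and library size) entered 1 alternative on the log2 scale, and the p-values deposited by the authors, with their log2 fold changes, served to count their calls.

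In R 4.3.3, genes of the 6 libraries were filtered by filterByExpr in edgeR 4.0.16, scaled by TMM and tested by the quasi-likelihood F-test with Benjamini-Hochberg adjustment and a threshold of 0.05. The SE is the absolute log2 change divided by the square root of F. The procedure was also run on simulated counts, with changes of either sign planted in a small random set of genes. Those counts held no general shift in abundant transcripts, so the run does not check the calls under the shift seen here. Alternatives were other scalings and filters, DESeq2 1.42.0, limma 3.58.1 on log2(FPKM + 1), all 9 libraries, a replicate block, a 2-fold minimum and each library left out. Named genes are the 10 largest rises and falls among labelled genes that average 5 CPM or more and whose groups are apart; the 6 largest gains and losses in CPM; from each list up to 3 called members per direction and the most abundant; the 3 with most reads that were absent from 1 group; and the 3 widest unlabelled changes per direction, of which some are printed. The members, families and lists were chosen with earlier results of these data known, 51 of the families after their values were seen. Groups are submitters' biological replicates; nothing says whether plants were grown separately.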

Additional observations from a re-analysis of the deposited data

How the results depend on the processing

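The 9503 calls became 9514 with DESeq2 size factors, 10010 with DESeq2's own test, 9386 with limma on log2(FPKM + 1), 9346 with no filter and 8698 with a stricter filter of 50 reads in 3 libraries. With all 9 libraries in the fit, 3824 genes were called (1997 higher, 1827 lower), 3765 of them among the 9503. Column totals gave 9022 higher and 2303 lower, with 7118 genes of the main calls kept. A 2-fold minimum left 5464 genes, 3070 higher and 2394 lower. Leaving out single libraries gave 7342 to 8743 calls, 3621 to 4484 higher and 3721 to 4373 lower; the larger side turned to lower without control 1 (3621 and 3721), control 2 (3626 and 3772) or moderate 1 (4304 and 4373), as it did with limma (4532 and 4854) and, narrowly, with DESeq2 size factors (4753 and 4761). Same-numbered libraries deviated together at r = 0.17, -0.03 and 0.11, and differently numbered ones at -0.17 to 0.12. With 3 libraries per group, these values cannot decide whether the numbers pair the samples. The fit with a replicate block called 8802 genes, 8428 of them shared. Of 162 genes followed one by one, none that was called changed its direction in 2265 gene and setting pairs; in 52 pairs a call was lost, 27 of these with all 9 libraries, and in 3 one was gained. Of 81 gene lists with a larger side, 68 kept it with column totals and 10 turned. With all 9 libraries in the fit 72 kept it and 6 turned. Without single libraries 73 to 76 kept it and 2 to 4 turned.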
